A study of Rattus norvegicus with 15 samples.

Results

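Gene expression in the aorta of uremic rats given alfacalcidol was set against that of sham rats. The members were 6 of the 15 arrays of the series, 3 labelled NX-alfacalcidol and 3 labelled sham, and the difference of the group means was taken for all 15739 features of the deposited table. All rats were Sprague Dawley. The sham rats had intact kidney tissue and are given no treatment in the labels. The NX rats had lost 5/6 of their kidney tissue by surgery and received 0.04 µg/kg alfacalcidol by intraperitoneal injection 3 times a week for 12 days. Sham and NX-alfacalcidol rats therefore differ by nephrectomy, by injection and by the compound, and the comparison alone cannot tell these apart. NX rats given vehicle on the same schedule are printed beside many of the results. Rats given other agonists of the receptor, paricalcitol (0.08 µg/kg) or VS-105 (0.01 µg/kg), are shown in places, without comparison, because their doses differ. Each array holds the pooled RNA of 2 aortas of one group. Sex, age and the hour at which tissue was taken are not given in the labels.

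Alfacalcidol is a vitamin D analogue that the liver turns into calcitriol, the hormone that binds the vitamin D receptor. That receptor is a nuclear receptor which pairs with a retinoid X receptor on DNA, and its agonists are given in kidney disease because the failing kidney makes too little calcitriol. The circadian clock, which recurs below, is a loop in almost every cell. BMAL1 and CLOCK switch on the Period, Cryptochrome and REV-ERB genes through E-box sequences. The products of those genes then shut BMAL1 and CLOCK down again, so that the genes that activate and the genes that repress peak at opposite times of day.

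Values are log2 signals, and array medians lay between 2.33 and 2.64. The lowest value of an array differed from -5.88 to -2.71. The highest of these minima belonged to NX-alfacalcidol array 2, on which 1 feature lay at or under -2.71, against 338 to 512 features on each other array. Values under -2.71 are therefore not comparable between arrays, and the genes affected are pointed out. The tissue label was checked against smooth muscle genes. Acta2, smooth muscle actin, read 9.69, 9.27 and 9.23 on the sham arrays and 9.06, 9.46 and 9.29 on the NX-alfacalcidol arrays. These ranges overlap, and both lie far above the array medians. Transcripts of gut epithelium were high on NX-vehicle arrays 2 and 3, and those of skeletal muscle on NX-VS-105 array 1. None of these 3 arrays is in the comparison itself, but they enter the shared estimate of spread, and 269 features passed without them against 275 with them, with 186 features in both counts. Fat transcripts varied among the compared arrays. The mean level of the white adipocyte list was 4.83, 6.05 and 5.33 on the sham arrays and 5.59, 5.64 and 3.97 on the NX-alfacalcidol arrays. The bearing of this on the calls was not tested.

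A feature was called at an adjusted p under 0.05 (limma, Benjamini-Hochberg). In NX-alfacalcidol against sham 275 of 15739 features were called, which is 1.75%. Of these, 184 were higher (1.17%) and 91 lower (0.578%) in NX-alfacalcidol. The called rises spanned 0.46 to 4.97 with a median of 1.02, and 96 of them were at least 2-fold. The called falls spanned 0.52 to 3.39 in size with a median of 1.33, and 65 were at least 2-fold. The 2 groups did not overlap for any called feature. Without a test, groups that did not overlap were found for 32.3% of all features, 25.7% higher and 6.56% lower. The median difference of all features was 0.14, with 65.4% of differences above 0. Subtracting each array's median moved every difference by -0.154 and turned the split of calls from 66.9% higher to 40.9% higher, with 142 higher and 205 lower. Small rises of single genes are therefore read against 0.14 rather than 0. The number of calls rested on few arrays: 40 were called without sham array 2, 146 without sham array 3, 39 without NX-alfacalcidol array 1 and 31 without NX-alfacalcidol array 3, while 861 were called without NX-alfacalcidol array 2. Leaving out NX-vehicle array 1 gave 481 calls, NX-vehicle array 3 gave 146 and NX-VS-105 array 2 gave 179. Of the 51 called genes chosen by the naming rule given below, 15 stayed called without any 1 of the 15 arrays and under every other setting in which they were tested: Ciart, Per2, Bmal1, Dbp, Tef, Wee1, Nr1d1, Nr1d2, Pf4, Clec1b, Treml1, Gp9, Gp1bb, Npy and Klf9. Without the 3 arrays holding gut or muscle transcripts the calls of Top2a, S100a9, Il1b, Inhbb, Mixl1, Nanos1, Panx2, Prss30 and Rasd2 were lost.

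**Figure D1:**
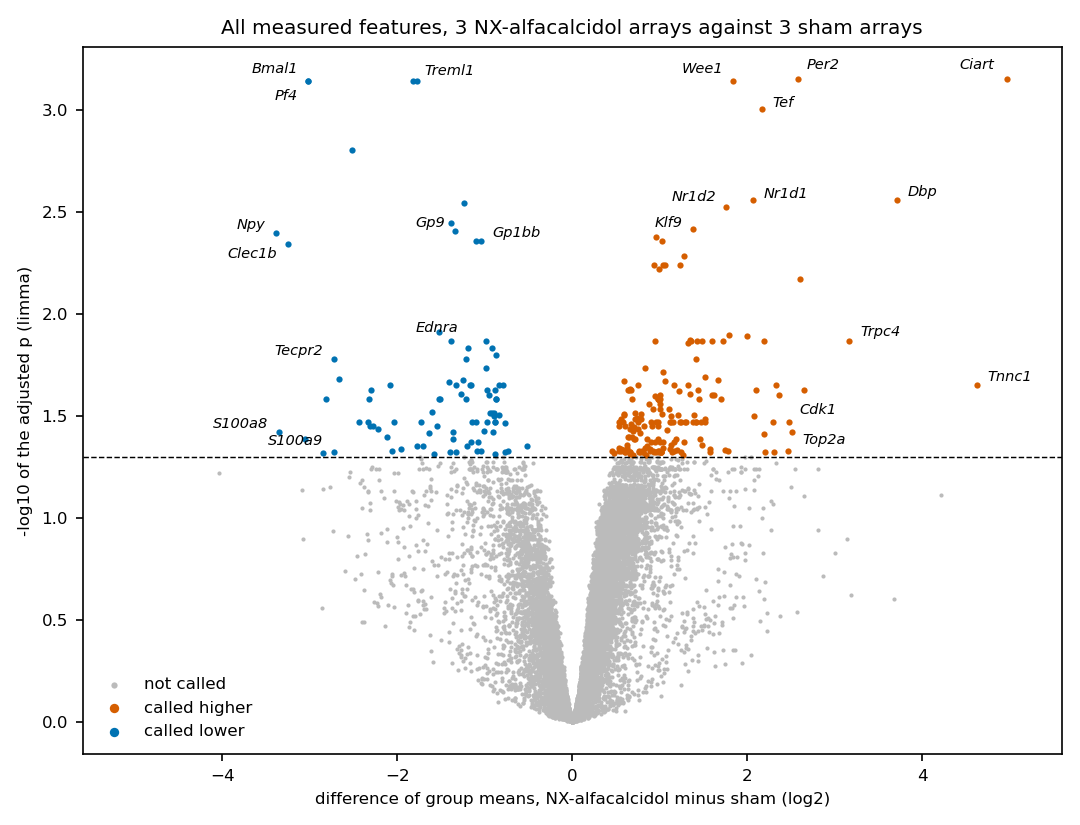
NX-alfacalcidol mean minus sham mean, log2 (x axis) against -log10 of the adjusted p (y axis) for 15739 features, 3 arrays a group. Orange points are the 184 features called higher in NX-alfacalcidol and blue points the 91 called lower, the dashed line marks the threshold of 0.05, and clock genes (Ciart, Per2, Bmal1, Wee1, Tef) and platelet genes (Pf4, Treml1) stand at the top.

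The clock genes held the calls with the smallest p-values. Of 17 measured core clock genes, 6 were higher and 3 lower, against a background of 1.75% of all features. Of 7 clock output genes, 3 were higher and 1 lower. The members that rose were the targets of the E-box and their repressors, and the members that fell were the activators Bmal1, Clock and Npas2 together with Nfil3. The core clock list had a median of 0.41 and the output list one of 0.50, against 0.14 for all features, since each list holds members of both directions. These lists had been seen to change in earlier work on these arrays and were not chosen blind.

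Promoter sequences are shown for the clock genes called here that carry a known clock element in the 250 bases before the start of the gene. They come from RefSeq on build GRCr8, are printed 5′ to 3′ on the strand of the gene, and have the element in capitals. The E-box, CACGTG, is bound by BMAL1 and CLOCK. The ROR element is bound by REV-ERB and ROR receptors. The D-box, TTANGTAA, is bound by DBP, TEF and NFIL3. Ciart lies at chr2:186112247-186112359 (minus strand), Nr1d1 at chr10:84229620-84229665 (minus), Tef at chr7:115206609-115206654 (plus), Bhlhe40 at chr4:143174210-143174255 (plus) and Bhlhe41 at chr4:180569378-180569423 (minus). The windows with the other elements are those of Bmal1 at chr1:176766289-176766327 (plus) and Per2 at chr9:99497158-99497205 (minus).
Ciart, E-box: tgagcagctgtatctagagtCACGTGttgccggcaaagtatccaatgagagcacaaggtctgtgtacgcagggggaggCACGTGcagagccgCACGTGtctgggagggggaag
Nr1d1, E-box: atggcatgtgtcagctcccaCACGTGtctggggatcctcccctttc
Tef, E-box: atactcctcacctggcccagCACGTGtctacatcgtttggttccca
Bhlhe40, E-box: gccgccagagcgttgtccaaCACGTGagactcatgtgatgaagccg
Bhlhe41, E-box: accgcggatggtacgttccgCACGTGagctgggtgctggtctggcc
Bmal1, ROR element: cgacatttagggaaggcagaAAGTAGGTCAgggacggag
Per2, D-box: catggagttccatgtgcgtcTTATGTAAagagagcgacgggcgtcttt

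Both strands were searched, and none of the searched elements is part of another. The E-box was found in 1698 of 27457 rat genes with a promoter entry (6.18%). It was found in 5 of the 8 clock genes called higher that have an entry, in 0 of 4 called lower and in 0 of 6 measured and not called. Among all genes called higher it was in 23 of 120 (19.2%), and in 18 of 112 (16.1%) once the listed clock genes were left out. Among the genes called lower it was in 2 of 50 (4%). The ROR element was in 64 promoters (0.233%) and the D-box in 601 (2.19%). A DR3 element, the spaced repeat that the vitamin D receptor prefers, was in 16 promoters (0.0583%), in 0 of 120 called higher and in 0 of 50 called lower. These counts describe letters in a short window and say nothing of binding.

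Among the repressors of the loop, Ciart had the largest difference. Ciart encodes CHRONO, which blocks BMAL1 and CLOCK, and its promoter holds 3 E-boxes. It read -2.75, -3.66 and -3.48 on the sham arrays, -1.28, -1.61 and -3.44 on the NX-vehicle arrays and 1.53, 2.13 and 1.37 on the NX-alfacalcidol arrays. Every NX-alfacalcidol array was above all arrays of the other 2 groups. The difference from sham was 4.97 (95% interval 3.98 to 5.96, adjusted p = 0.000702). All 3 sham values lie under -2.71, and with values raised to that level the difference was 4.39 (adjusted p = 6.01e-05). Against NX-vehicle it was 3.78 (adjusted p = 0.0148).

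Per2, a Period repressor, read 1.03, 1.08 and 1.06 in sham, 1.54, 2.46 and 1.56 in NX-vehicle and 3.77, 3.57 and 3.58 in NX-alfacalcidol. The 3 groups did not overlap, and sham was the lowest. The difference was 2.58 (2.09 to 3.07, adjusted p = 0.000702) from sham and 1.79 (adjusted p = 0.0157) from NX-vehicle. Nr1d1, which encodes REV-ERB alpha, the repressor of Bmal1, read 0.89, 1.42 and 1.81 in sham, 2.84, 2.65 and 2.28 in NX-vehicle and 3.54, 3.18 and 3.59 in NX-alfacalcidol. Its groups were in the same order without overlap. The difference from sham was 2.07 (1.52 to 2.61, adjusted p = 0.00274). Nr1d2, its close relative REV-ERB beta, differed by 1.76 (adjusted p = 0.00298), with NX-vehicle at 0.83 from sham. Bhlhe40 and Bhlhe41, which encode the E-box repressors DEC1 and DEC2, differed by 1.72 (adjusted p = 0.0135) and 2.07 (adjusted p = 0.0314), with NX-vehicle at 1.02 and 0.39 from sham. The Bhlhe40 call was lost without NX-alfacalcidol array 1 or 3, with an adjusted p of up to 0.0651. The Bhlhe41 call was lost without any single one of the 3 sham arrays or of NX-alfacalcidol arrays 1 and 3, with an adjusted p of up to 0.085.

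The other Period and Cryptochrome genes did not pass. Per1, which hormones including glucocorticoids also induce, differed by 0.41 (adjusted p = 0.143), and Per3 by 0.32 (adjusted p = 0.238). Cry2 differed by -0.06 (adjusted p = 0.793). Cry1 read 0.57, 0.28 and 0.24 in sham, -0.24, -0.23 and -0.34 in NX-vehicle and 1.01, 1.09 and 0.27 in NX-alfacalcidol. Its sham and NX-alfacalcidol arrays overlap, and the difference of 0.43 had an adjusted p of 0.216. Rora, which activates Bmal1 through the element that REV-ERB also binds, differed by 0.60 (adjusted p = 0.0809).

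The activators lay on the other side. Bmal1, the partner of CLOCK, read 2.66, 1.89 and 2.57 in sham, 1.22, 2.40 and 2.22 in NX-vehicle and -0.62, -0.94 and -0.38 in NX-alfacalcidol. All NX-alfacalcidol arrays were below every array of the other 2 groups, which overlap with each other. The difference was -3.02 (-3.68 to -2.36, adjusted p = 0.000718) from sham and -2.59 (adjusted p = 0.0148) from NX-vehicle. Npas2, which can take the place of CLOCK, read 3.73, 3.37 and 3.84 in sham and 2.29, 2.28 and 2.71 in NX-alfacalcidol, a difference of -1.22 (adjusted p = 0.0259). Clock itself read 1.15, 0.73 and 0.45 in sham and -0.44, -0.09 and -0.06 in NX-alfacalcidol, a difference of -0.97 (adjusted p = 0.0234). Sham and NX-alfacalcidol do not overlap for either gene. The NX-vehicle arrays read 2.80 to 3.45 for Npas2, overlapping with sham, and 0.13 to 0.43 for Clock, between the other groups. Both calls were lost without sham array 2 or without NX-alfacalcidol array 1 or 3, and that of Npas2 also without sham array 3. The adjusted p then reached 0.126 for Npas2 and 0.119 for Clock.

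The output genes carry the phase of the loop to other genes. Dbp, a D-box activator driven by E-boxes, read 3.90, 5.15 and 4.71 in sham, 6.53, 5.93 and 5.12 in NX-vehicle and 8.08, 8.64 and 8.19 in NX-alfacalcidol. The lowest NX-alfacalcidol array was above the highest of the other 2 groups. The difference from sham was 3.72 (2.75 to 4.68, adjusted p = 0.00274), and that from NX-vehicle was 2.44 (adjusted p = 0.0794). Tef, a relative of Dbp, read 2.90, 3.46 and 3.48 in sham, 4.11, 4.43 and 3.50 in NX-vehicle and 5.38, 5.58 and 5.39 in NX-alfacalcidol. Again NX-alfacalcidol was highest without overlap, by 2.17 (adjusted p = 0.00098). Nfil3, which represses at the D-box where Dbp and Tef activate, read 2.81, 3.09 and 2.39 in sham, 2.94, 1.45 and 3.40 in NX-vehicle and 1.07, -0.13 and 0.04 in NX-alfacalcidol. Here NX-alfacalcidol was the lowest group, at a difference of -2.44 (adjusted p = 0.0338). That call was lost without any single sham array or without NX-alfacalcidol array 1 or 3, with an adjusted p of up to 0.139. Wee1, a kinase that holds cells back from mitosis and is an E-box target of the clock, read 2.13, 2.09 and 2.27 in sham, 2.54, 2.97 and 2.35 in NX-vehicle and 4.34, 3.74 and 3.93 in NX-alfacalcidol. NX-alfacalcidol was above both other groups, by 1.84 (adjusted p = 0.000718) against sham and 1.38 (adjusted p = 0.0217) against NX-vehicle. The calls of Ciart, Per2, Bmal1, Dbp, Tef, Wee1, Nr1d1 and Nr1d2 against sham held when any 1 of the 15 arrays was left out, with an adjusted p of at most 0.0182.

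**Figure D2:**
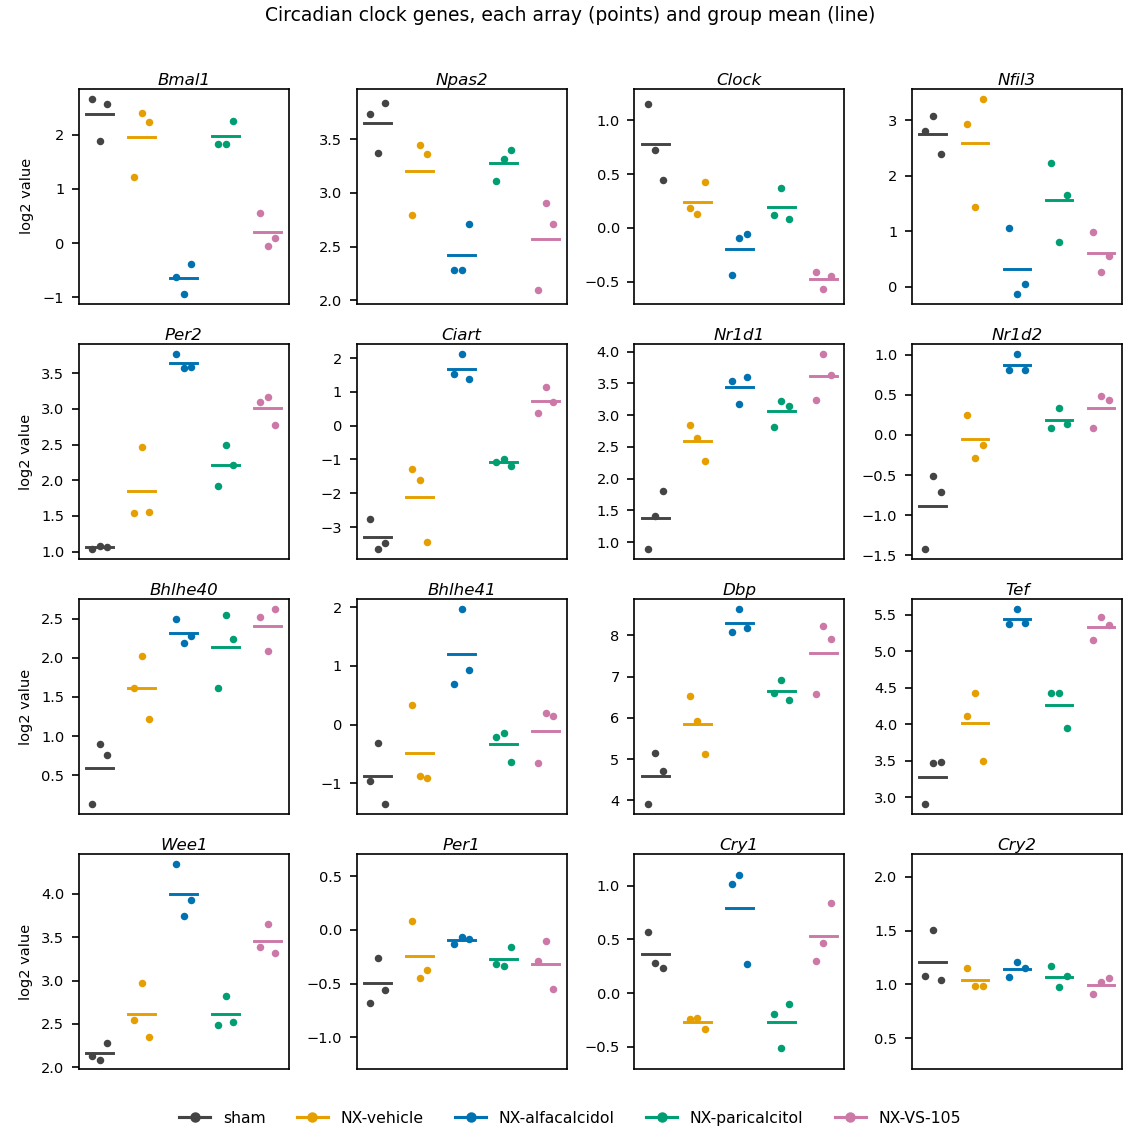
Log2 value (y axis, its own range in each panel) of 16 clock and clock output genes on each array (points) with the mean of the 3 arrays (line), in 5 groups from left to right as in the key. In NX-alfacalcidol Bmal1 lies at -0.94 to -0.38 and Per2 at 3.57 to 3.77, on opposite sides of sham, and the groups of Cry2 overlap.

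Array values of the same genes under the other compounds are shown in that plot. Mean levels of Bmal1 were 1.97 in NX-paricalcitol and 0.20 in NX-VS-105, and those of Per2 were 2.21 and 3.01. The doses and the compounds differ together, so these levels are given without comparison. The hour of tissue collection is not in the labels, and a difference in hour between groups and a difference in the clock itself cannot be told apart.

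Platelet genes fell as well. Of 7 measured genes of the platelet list, 5 were lower and 0 higher (background 0.578% lower), with a list median of -1.34 against 0.14 for all features. In these tissue samples fewer platelets and less RNA per platelet cannot be told apart. Pf4, platelet factor 4, a chemokine stored in platelet granules, read 6.04, 6.65 and 6.16 in sham, 5.40, 4.25 and 5.40 in NX-vehicle and 3.05, 3.48 and 3.25 in NX-alfacalcidol. The 3 groups did not overlap, and NX-vehicle lay in the middle. The difference was -3.03 (-3.70 to -2.35, adjusted p = 0.000718) from sham and -1.76 from NX-vehicle. Clec1b, which encodes CLEC-2, the platelet receptor for podoplanin, read 2.72, 2.95 and 2.56 in sham, 1.10, -0.32 and 1.06 in NX-vehicle and 0.11, -0.54 and -1.11 in NX-alfacalcidol. Sham stood above both NX groups, which overlap. The difference was -3.25 (adjusted p = 0.00451).

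Treml1, a receptor of platelet granules, read 0.18, 0.67 and 0.21 in sham, -0.51, -1.0 and -0.33 in NX-vehicle and -1.26, -1.71 and -1.41 in NX-alfacalcidol. Its groups did not overlap, and the difference from sham was -1.82 (adjusted p = 0.000718). Gp9 and Gp1bb encode subunits of the receptor by which platelets hold von Willebrand factor. Gp9 read 1.37, 1.62 and 1.16 in sham, 0.54, -0.03 and 0.21 in NX-vehicle and 0.03, 0.11 and 0.00 in NX-alfacalcidol, a difference of -1.34 (adjusted p = 0.00392). Gp1bb read 3.57, 3.79 and 3.29 in sham, 2.52, 2.61 and 2.65 in NX-vehicle and 2.50, 2.47 and 2.56 in NX-alfacalcidol, a difference of -1.04 (adjusted p = 0.00436). For both subunits the 2 NX groups overlap and sham lies above them. Gp5, a further subunit of that receptor, differed by -0.12 (adjusted p = 0.624), and Itgb3, an integrin that endothelial cells and macrophages also make, by -0.39 (adjusted p = 0.171). The 5 platelet calls held without any 1 of the 15 arrays, with an adjusted p of at most 0.0321. In NX-vehicle against sham the list's median was -0.97, with 0 members called. These comparisons share the sham arrays.

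The lists of other blood cells had fewer calls. Of 4 measured neutrophil genes 2 were lower (0.578% of all features), both subunits of calprotectin, the protein that neutrophils release in inflammation. S100a8 read -0.43, 0.97 and -0.22 in sham, -0.27, -2.61 and -2.15 in NX-vehicle and -2.96, -2.47 and -4.33 in NX-alfacalcidol. Sham and NX-alfacalcidol did not overlap, and NX-vehicle array 1 was as high as sham. The difference was -3.36 (adjusted p = 0.038), and -2.74 (adjusted p = 0.0474) with values raised to -2.71. S100a9 read 0.82, 1.81 and 0.49 in sham, 0.40, -1.41 and -1.04 in NX-vehicle and -1.39, -1.39 and -2.29 in NX-alfacalcidol, a difference of -2.73 (adjusted p = 0.0472). Mpo, myeloperoxidase of neutrophil granules, differed by -0.36 (adjusted p = 0.744), and Camp, an antimicrobial peptide, by -0.19 (adjusted p = 0.47). The S100a8 call was lost without sham array 2 or 3, NX-vehicle array 3, NX-paricalcitol array 3, NX-alfacalcidol array 1 or 3, or NX-VS-105 array 2, with an adjusted p of up to 0.161. The S100a9 call was lost without any 1 of these, of sham array 1 or of NX-VS-105 array 1, with an adjusted p of up to 0.178.

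Red cell genes varied within NX-alfacalcidol. All 5 measured erythroid genes had a negative difference, with a median of -1.16, and 0 were called. Hbb, the beta chain of haemoglobin, read 10.18, 10.36 and 9.90 in sham and 8.90, 10.31 and 7.75 in NX-alfacalcidol, so that NX-alfacalcidol array 2 matched sham. The difference was -1.16 (adjusted p = 0.183). All 4 measured T cell genes were also below 0, with a median of -1.41 and 0 called. Cd5, a T cell surface receptor, differed by -2.38 (adjusted p = 0.07). It had values under the highest array minimum, and with values raised to that level the difference was -1.12 (adjusted p = 0.142). Zap70, a kinase of the T cell receptor, differed by -1.13 (adjusted p = 0.0712). Of 15 macrophage genes 0 were called, and their median of 0.06 was near that of all features. The mean level of the platelet list was 2.09 to 2.41 on the sham arrays and 0.56 to 0.73 on the NX-alfacalcidol arrays, and that of the erythroid list 3.27 to 3.84 and 1.18 to 3.49. How much blood the pieces of aorta held was not tested.

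The largest fall among the called features was that of Npy. Neuropeptide Y is released with noradrenaline by the sympathetic nerves of the vessel wall and constricts vessels, and rat megakaryocytes and platelets also hold it. Npy read 6.58, 7.02 and 6.54 in sham, 5.20, 3.79 and 5.27 in NX-vehicle and 3.63, 3.18 and 3.15 in NX-alfacalcidol. The groups did not overlap, and NX-alfacalcidol was lowest. The difference from sham was -3.39 (-4.35 to -2.43, adjusted p = 0.00401), and it remained called without any 1 of the 15 arrays. Th, tyrosine hydroxylase of the same nerves, read 4.70, 4.82 and 4.42 in sham and 4.63, 4.70 and 4.60 in NX-alfacalcidol. These ranges overlap, and the difference was 0.00 (adjusted p = 0.991). Uchl1, a ubiquitin hydrolase abundant in neurons, was higher by 1.79 (adjusted p = 0.0127) with NX-vehicle at 1.09 from sham, a call lost without sham array 2 or NX-alfacalcidol array 3 (adjusted p of up to 0.065). Of the 5 measured genes of the nerve list, 1 was higher and 1 lower, against 1.17% and 0.578% of all features.

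**Figure D3:**
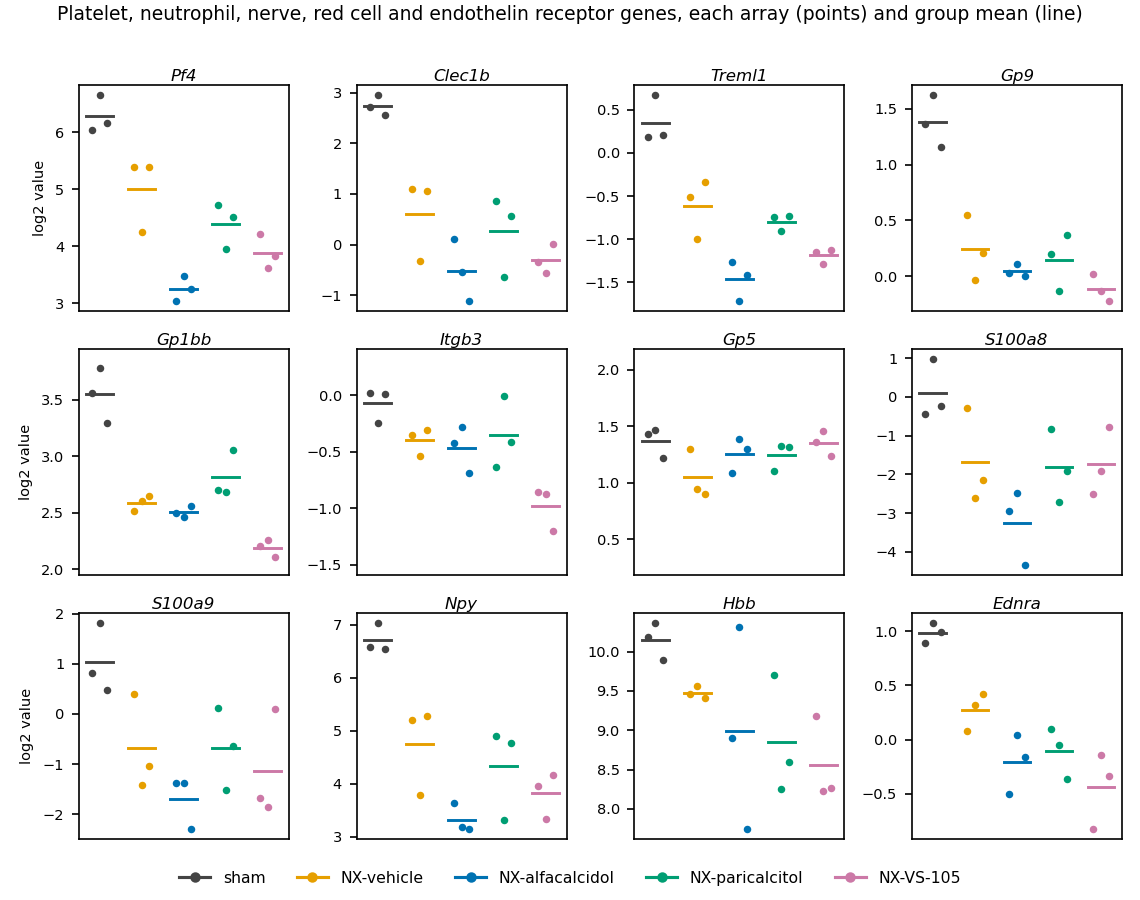
Log2 value (y axis, its own range in each panel) of 7 platelet genes, the calprotectin subunits S100a8 and S100a9, Npy, Hbb and the endothelin receptor gene Ednra on each array (points) with group means (lines). The 3 sham arrays lie above the 3 NX-alfacalcidol arrays for 10 of the 12 genes, and overlap with them for Gp5 and Hbb.

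Genes of DNA replication and mitosis had differences above 0 with few calls. All 19 measured cell cycle genes had a difference above the 0.14 of all features, with a list median of 1.02, and 15 of 19 had groups that did not overlap, against 25.7% of all features. Only 2 of the 19 were called, both higher, against 1.17% of all features. Top2a, the topoisomerase that untangles replicated DNA, read -2.58, -2.61 and -3.46 in sham, -1.39, -0.63 and -0.19 in NX-vehicle and 0.06, -1.11 and -0.06 in NX-alfacalcidol. Both NX groups were above sham and overlap with each other. The difference was 2.52 (adjusted p = 0.0378), and 2.27 (adjusted p = 0.0431) with values raised to -2.71. Cdk1, the kinase that drives mitosis, read 0.08, 0.35 and -0.12 in sham, 0.88, 2.28 and 2.60 in NX-vehicle and 2.98, 1.94 and 2.82 in NX-alfacalcidol, a difference of 2.48 (adjusted p = 0.0338). Ccna2, cyclin A2, differed by 2.04 (adjusted p = 0.0501) and Pcna, the sliding clamp of DNA polymerase, by 0.67 (adjusted p = 0.0618). Outside the list, Cks2, a small partner of Cdk1, was higher by 2.20 (adjusted p = 0.0386), and Pimreg, a mitotic regulator, by 2.30 (adjusted p = 0.0476, and 0.0616 with array medians subtracted). The same list had a median of 0.43 in NX-vehicle against sham, with 0 called, and one of 0.39 in NX-alfacalcidol against NX-vehicle. Without sham array 2 or 3, or NX-alfacalcidol array 1 or 3, 0 of the 19 were called, against 7 without NX-vehicle array 1, 6 without NX-alfacalcidol array 2 and 4 without NX-paricalcitol array 1. It was 1 without sham array 1 or NX-vehicle array 3. The Cks2 call was lost without the same 4 arrays, and that of Pimreg without any sham array, NX-vehicle array 3, NX-paricalcitol array 2, NX-alfacalcidol array 1 or 3 or NX-VS-105 array 1, with an adjusted p of up to 0.144 and 0.166.

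**Figure D4:**
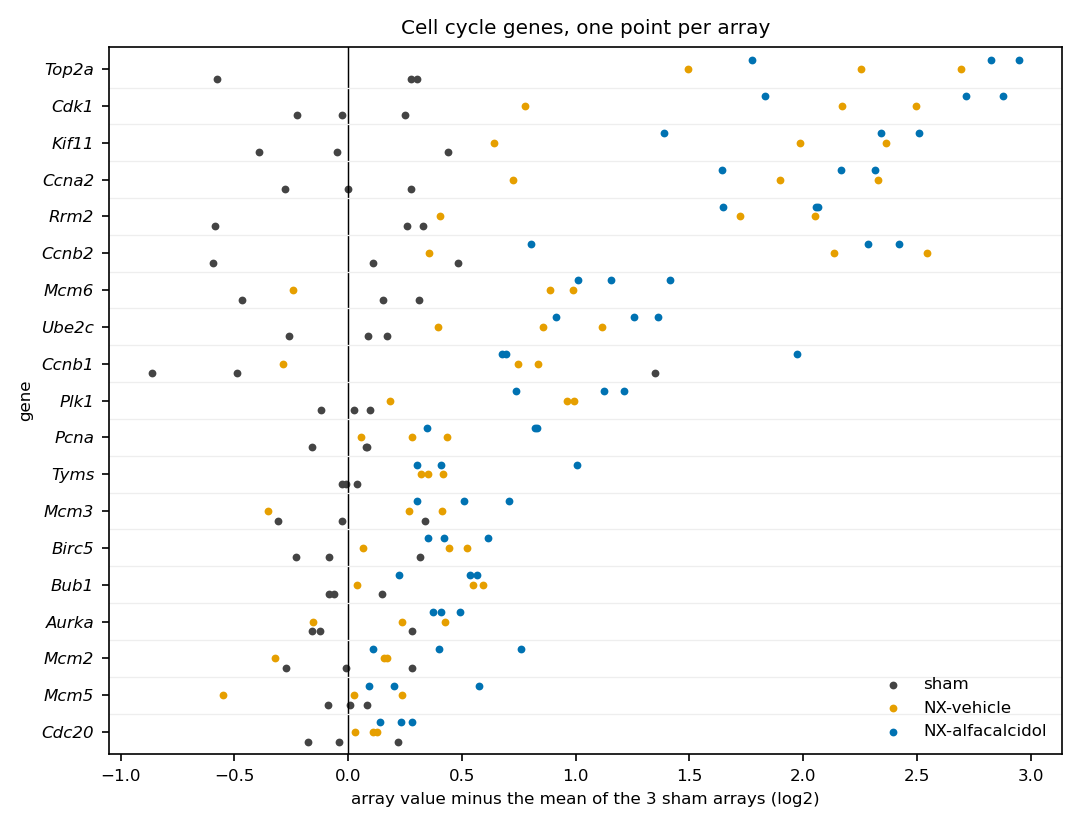
Array value minus the mean of the 3 sham arrays (x axis, log2) for the 19 measured cell cycle genes (y axis), 1 point per array of sham, NX-vehicle and NX-alfacalcidol. Top2a and Cdk1 at the top have all NX-alfacalcidol arrays above sham, and 15 of the 19 genes have no overlap between these groups.

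Other called rises included those of Tnnc1, Trpc4 and Ano1. Tnnc1, troponin C of slow and cardiac muscle, read 0.68, 1.19 and 1.07 in sham, 1.05, 5.05 and 4.33 in NX-vehicle and 5.41, 5.71 and 5.69 in NX-alfacalcidol. NX-alfacalcidol was above both groups, and NX-vehicle array 1 lay within sham. The difference was 4.62 (2.84 to 6.41, adjusted p = 0.0223). Of 19 measured skeletal muscle genes, Tnnc1 was the 1 called, against 1.75% of all features. The mean level of that list was 0.15 to 0.33 on the sham arrays and 0.34 to 1.23 on the NX-alfacalcidol arrays. Tnni1, the slow muscle partner of Tnnc1, differed by -0.95 (adjusted p = 0.658) and Myh7, slow myosin, by -0.17 (adjusted p = 0.936). Trpc4, a cation channel that lets calcium into vascular cells, read 0.01, -1.30 and -0.84 in sham, 0.58, 2.00 and 1.95 in NX-vehicle and 2.77, 2.20 and 2.40 in NX-alfacalcidol. The groups did not overlap, and the difference was 3.17 (adjusted p = 0.0135). Ano1, a chloride channel opened by calcium, read 6.10, 5.43 and 5.61 in sham and 7.12, 7.29 and 6.87 in NX-alfacalcidol, a difference of 1.38 (adjusted p = 0.0338) with NX-vehicle at 0.56 from sham. Of 25 ion channel genes Trpc4 and Ano1 were higher and 0 lower, against 1.17% and 0.578% of all features, with a list median of -0.14. The calls of Tnnc1, Trpc4 and Ano1 were lost without sham array 2 or without NX-alfacalcidol array 1 or 3, and that of Ano1 also without sham array 3. The adjusted p then reached 0.085, 0.0665 and 0.142.

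The remaining large rises had varied roles. Sphkap, an anchor for protein kinase A, was higher by 2.66 (adjusted p = 0.0234), and Asip, the agouti antagonist of melanocortin receptors, by 2.36 (adjusted p = 0.0248). Fjx1, a secreted protein of the four-jointed family, was higher by 2.33 (adjusted p = 0.0223), and Rasd2, a small GTPase, by 2.29 (adjusted p = 0.0338). For all 4 genes the NX-alfacalcidol arrays were above all sham arrays. NX-vehicle means differed from sham by 2.04 for Sphkap, 1.83 for Asip, 1.28 for Fjx1 and 0.57 for Rasd2, and none of these 4 was called. All 4 calls were lost without sham array 2 or NX-alfacalcidol array 1 or 3, with an adjusted p of 0.109 to 0.144. Those of Asip and Rasd2 were also lost without sham array 3, and that of Rasd2 without NX-vehicle array 3.

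Genes that glucocorticoids induce had a list median of 0.77 over 14 members, of which 2 were higher (1.17% of all features) and 0 lower. Differences spanned -1.25 to 2.11, with 10 members above the median of all features and 4 below it. The members named here are all rises. Klf9, a zinc finger factor that follows both glucocorticoids and the clock, read 4.90, 4.63 and 4.96 in sham, 5.13, 5.46 and 5.01 in NX-vehicle and 6.32, 6.04 and 6.28 in NX-alfacalcidol. NX-alfacalcidol stood above both groups, by 1.38 (1.00 to 1.77, adjusted p = 0.0038) against sham and 1.02 (adjusted p = 0.064) against NX-vehicle. The call against sham held without any 1 array. Zbtb16, the transcription factor PLZF, read -0.19, -0.73 and -0.50 in sham, -0.29, 0.67 and -0.08 in NX-vehicle and 2.28, 0.99 and 1.60 in NX-alfacalcidol. It was again highest in NX-alfacalcidol without overlap, by 2.10 (adjusted p = 0.0234), a call lost without sham array 2 or 3 or NX-alfacalcidol array 1 or 3 (adjusted p of up to 0.114). Fkbp5, a co-chaperone of the glucocorticoid receptor, differed by 2.11 (adjusted p = 0.0574), Sgk1, a kinase of salt transport, by 1.19 (adjusted p = 0.0512) and Tsc22d3, the mediator GILZ, by 1.02 (adjusted p = 0.111). The number of called members was 4 without NX-vehicle array 2, NX-VS-105 array 1 or NX-VS-105 array 3, and 1 without any single one of sham arrays 2 and 3 and NX-alfacalcidol arrays 1 and 3.

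Stress genes had smaller differences. Of 20 chaperone genes 3 were higher and 0 lower, against 1.17% and 0.578% of all features, with a list median of 0.32. Dnaja1, a co-chaperone of HSP70, read 4.28, 4.14 and 4.41 in sham, 5.34, 5.12 and 5.40 in NX-vehicle and 5.53, 5.04 and 5.09 in NX-alfacalcidol. Both NX groups stood above sham and overlap, and the difference was 0.94 (adjusted p = 0.0135). Hspa8, the constitutive HSP70, was higher by 0.98 (adjusted p = 0.0355, NX-vehicle at 0.84 from sham) and Chordc1, a partner of HSP90, by 0.63 (adjusted p = 0.0234). Txnrd1, thioredoxin reductase, was the 1 called of 22 antioxidant genes, at 0.79 (adjusted p = 0.0326). Hif1a, the oxygen-regulated subunit of hypoxia-inducible factor, was the 1 called of 13 hypoxia genes, at 1.02 (adjusted p = 0.0476). A single call in a list of this size is read against the 1.75% called over all features. With array medians subtracted, Hspa8 and Hif1a no longer passed, at an adjusted p of 0.0616 and 0.0619. Without sham array 2 or without NX-alfacalcidol array 1 the calls of all 5 genes were lost, with an adjusted p of up to 0.0654 for Dnaja1 and 0.184 for Hif1a. Those of all but Dnaja1 were lost without NX-alfacalcidol array 3, and those of Hspa8 and Hif1a also without sham array 1 or 3 or NX-vehicle array 3. The Hif1a call was lost without any NX-paricalcitol array or NX-VS-105 array 2 as well. The list of chaperones had 5 calls without NX-vehicle array 2.

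Of 24 measured vasoactive factors 0 were higher and 1 lower, against 1.17% and 0.578% of all features. Their median was 0.03, with differences from -1.19 to 1.07. Ednra, the endothelin receptor of smooth muscle through which endothelin-1 constricts vessels, read 0.89, 1.07 and 0.99 in sham, 0.08, 0.32 and 0.42 in NX-vehicle and -0.50, 0.04 and -0.16 in NX-alfacalcidol. The 3 groups did not overlap, and NX-alfacalcidol was lowest. The difference was -1.19 (-1.61 to -0.77, adjusted p = 0.0147), lost without sham array 2 or NX-alfacalcidol array 1 or 3 (adjusted p of up to 0.0734). Its ligand Edn1 read -1.05, -1.52 and -1.07 in sham, -0.62, 0.11 and -0.23 in NX-vehicle and -1.10, -1.04 and -1.49 in NX-alfacalcidol. Sham and NX-alfacalcidol occupied the same range, with a difference of 0.01 (-0.51 to 0.52, adjusted p = 0.991) that was -0.15 with array medians subtracted, and NX-vehicle lay above both. Nos3, endothelial nitric oxide synthase, read 1.93, 2.10 and 1.89 in sham, 2.42, 1.99 and 1.96 in NX-vehicle and 1.72, 1.04 and 1.21 in NX-alfacalcidol. NX-alfacalcidol was lowest without overlap, and the difference of -0.65 (-1.21 to -0.09) had an adjusted p of 0.138. The endothelial list, with 14 genes measured, had a median of -0.36 and 0 called. Pecam1, the junction protein CD31, differed by -0.72 (adjusted p = 0.0738) and Sox18, an endothelial transcription factor, by -0.74 (adjusted p = 0.0884).

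The vitamin D pathway had 0 of 12 measured genes called and a median of 0.14, that of all features. Vdr, the receptor that the compound acts on, read -0.19, 1.26 and 0.65 in sham, 0.38, 0.51 and 0.89 in NX-vehicle and -0.76, -0.50 and -0.96 in NX-alfacalcidol. NX-alfacalcidol was below both groups without overlap, at a difference of -1.32 (-2.09 to -0.54) from sham with an adjusted p of 0.0686. Its partners differed little: Rxra by -0.27 (adjusted p = 0.423) and Rxrb by 0.12 (adjusted p = 0.554). Cyp27b1, which makes calcitriol, differed by 0.04 (adjusted p = 0.89). Cyp24a1, the enzyme that degrades calcitriol, was not analysed here, and neither were the list members Calb1, Trpv5 and Trpv6. The 12 measured genes therefore cannot stand for the whole list of 20.

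Other genes with large falls are given, most of them with their NX-vehicle levels. Tecpr2, an autophagy protein, read 0.54, 0.48 and 0.04 in sham, -0.29, -0.36 and -0.16 in NX-vehicle and -2.31, -2.56 and -2.27 in NX-alfacalcidol, a difference of -2.73 (adjusted p = 0.0166). Panx2, a channel protein of the pannexin family, read -0.54, 0.65 and -0.44 in sham, -0.48, -0.65 and -0.42 in NX-vehicle and -2.46, -2.32 and -2.58 in NX-alfacalcidol, a difference of -2.34 (adjusted p = 0.0338). For both genes NX-alfacalcidol was the lowest of these groups without overlap, and NX-vehicle differed from sham by -0.62 and -0.40. Nanos1, an RNA-binding regulator of translation, fell by 2.31 (adjusted p = 0.0355), Prss30, a serine protease, by 2.06 (adjusted p = 0.0467) and Mixl1, a homeobox factor of the early embryo, by 2.03 (adjusted p = 0.0338). Mean values of Mixl1 in NX-vehicle differed from sham by -0.10 and those of Prss30 by 0.08. Elovl3, which lengthens fatty acids in brown fat, had a difference of -2.77 (adjusted p = 0.0701) and NX-vehicle at 0.05 from sham. It was the lowest of 11 measured brown fat genes, of which 0 were called and 6 lay above 0, with a median of 0.09. On NX-paricalcitol array 3 Mixl1 was higher than on the other 2 arrays of that group, at -0.48 against -1.80 and -2.38. Vdr, described above, was also higher there, at 0.15 against -0.74 and -1.19. Kcnk5, an acid-sensitive potassium channel, fell by 2.09 (adjusted p = 0.0223), with NX-vehicle at -0.77 from sham. The calls of Tecpr2, Panx2, Nanos1, Mixl1 and Kcnk5 were lost without sham array 2 or NX-alfacalcidol array 1 or 3, with an adjusted p of 0.0704 to 0.154. All but Tecpr2 were lost without sham array 3, and Panx2, Nanos1 and Mixl1 without NX-vehicle array 3. The Nanos1 call was also lost without NX-VS-105 array 2, and that of Prss30 without sham array 2 or 3, NX-vehicle array 3 or any single NX-alfacalcidol or NX-VS-105 array (adjusted p of up to 0.176).

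Signalling and inflammation lists gave few calls. Of 24 genes of TGF-beta, BMP and activin signalling 0 were higher and 2 lower (0.578% of all features), while the list's median was 0.73 and 19 of 24 lay above the median of all features. The 2 that fell belong to the activin branch. Fst, follistatin, which binds and blocks activin, read 3.30, 3.23 and 3.15 in sham, 3.10, 2.81 and 2.59 in NX-vehicle and 1.72, 2.39 and 1.35 in NX-alfacalcidol. NX-alfacalcidol was lowest without overlap, by -1.41 (adjusted p = 0.0215). Inhbb, the beta B subunit of activin and inhibin, read 1.13, 0.98 and 1.22 in sham, 1.35, 1.21 and 1.05 in NX-vehicle and 0.51, 0.63 and 0.63 in NX-alfacalcidol, a difference of -0.52 (adjusted p = 0.0442). Of the members that did not pass, Id1, a target of BMP, differed by 1.43 (adjusted p = 0.0779) and Tgfb3, a TGF-beta ligand, by 0.70 (adjusted p = 0.065). The Fst call was lost without sham array 2 or NX-alfacalcidol array 1 or 3 (adjusted p of up to 0.0909), and that of Inhbb without any single sham or NX-VS-105 array, NX-vehicle array 3, NX-paricalcitol array 2 or 3, or NX-alfacalcidol array 1 or 3 (adjusted p of up to 0.175).

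Of 17 chemokine, cytokine and adhesion genes 1 was lower, against 0.578% of all features, with a list median of -0.14. Il1b, interleukin-1 beta, read -0.08, -0.16 and 0.23 in sham, 0.23, -0.31 and 0.03 in NX-vehicle and -2.18, -1.44 and -1.51 in NX-alfacalcidol. NX-alfacalcidol lay below both other groups, which share one range, and the difference from sham was -1.71 (adjusted p = 0.0443). That call was lost without any single sham array, NX-vehicle array 3, NX-paricalcitol array 2, NX-alfacalcidol array 1 or 3, or NX-VS-105 array 1 or 2 (adjusted p of up to 0.178). Ccl2, the monocyte chemoattractant, read 2.24, 1.26 and 2.51 in sham, 2.92, 3.06 and 2.71 in NX-vehicle and 1.01, 1.29 and 1.31 in NX-alfacalcidol. Sham and NX-alfacalcidol overlap and NX-vehicle lay above both, and the difference from sham was -0.80 (adjusted p = 0.242). Of 25 immediate early genes 1 was lower (0.578% of all features), while the list's median was 0.30 and 16 lay above the median of all features. The gene that fell was Ier5, a regulator of the heat shock response, by -1.0 (adjusted p = 0.0374). That call was lost without any single sham array, NX-vehicle array 3, NX-paricalcitol array 2 or 3, or NX-alfacalcidol array 1 or 3 (adjusted p of up to 0.152).

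The contractile, matrix and calcification lists had no calls. Contractile smooth muscle genes had a median of 0.27 over 17 members, fibrillar and elastic matrix genes one of 0.11 over 20, and calcification regulators one of 0.32 over 14. Acta2 differed by -0.13 (adjusted p = 0.701) and Col1a1, a chain of type I collagen, by -0.12 (adjusted p = 0.806). Spp1, osteopontin, read 7.14, 5.99 and 7.43 in sham, 5.97, 9.23 and 7.88 in NX-vehicle and 8.26, 8.61 and 8.29 in NX-alfacalcidol. NX-alfacalcidol was above sham without overlap, but the difference of 1.53 had a wide interval (-0.16 to 3.23, adjusted p = 0.226). Mgp, the matrix Gla protein that inhibits calcification, read 10.62, 10.71 and 10.72 in sham and 11.32, 11.64 and 11.35 in NX-alfacalcidol, a difference of 0.76 (adjusted p = 0.127). Respiratory chain genes had a median of 0.07 over 28 members and fatty acid oxidation genes one of 0.04 over 19, with 0 called in either. In all, 16 of the 38 lists had a member called and 22 had none.

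**Figure D5:**
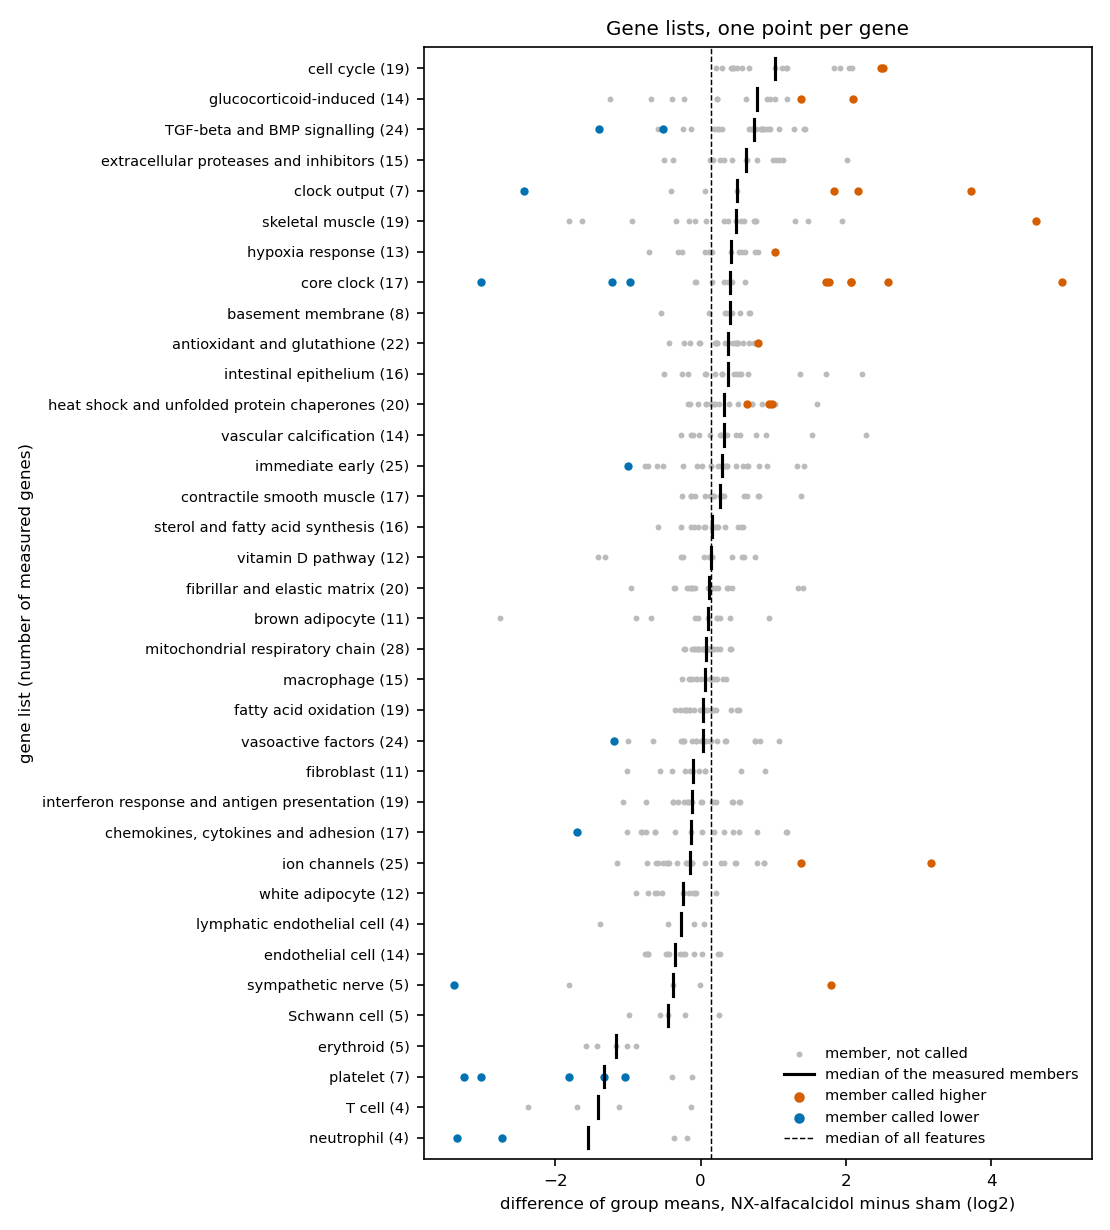
Difference of group means, NX-alfacalcidol minus sham (x axis, log2), for the measured genes of each list with at least 4 of them (y axis, number of genes in brackets), 1 point per gene, with the list median as a black bar. The dashed line is the median of all features, 0.14, and the median is 1.02 for cell cycle genes and -1.34 for platelet genes.

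The groups can be placed by setting the comparisons that share arrays side by side. NX-vehicle against sham gave 0 calls by limma (0%), with 1423 features (9.04%) at an unadjusted p under 0.05 and a median difference of -0.04 over all features. NX-alfacalcidol against sham had 4199 (26.7%) at that level. NX-alfacalcidol against NX-vehicle gave 7 calls (0.0445%), 4 higher (0.0254%) and 3 lower (0.0191%), with 2868 (18.2%) at an unadjusted p under 0.05. The split depended on the setting, with 14 higher and 138 lower once array medians were subtracted, 12 and 105 with quantile normalization, and 2 and 56 with only these 2 groups fitted. Those higher were Ciart, Per2, Wee1 and Ifrd2, a regulator of ribosome use, at 0.87 (adjusted p = 0.0314). Those lower were Bmal1, Mest, an imprinted hydrolase, at -1.45 (adjusted p = 0.0225), and LOC498276 at -1.80 (adjusted p = 0.0167). The difference from sham was 0.96 (adjusted p = 0.00418) for Ifrd2, -0.98 (adjusted p = 0.0338) for Mest and -1.27 (adjusted p = 0.0246) for LOC498276. The last 3 genes were named after their values were seen, because the count is small. Whether the calls of these genes held without single arrays is not given. Without NX-alfacalcidol array 2 or 3 there were 0 calls against NX-vehicle, and without NX-vehicle array 3 there was 1. Without sham array 1 there were 18 calls, without NX-paricalcitol array 3 there were 35, without NX-vehicle array 2 there were 11, without NX-VS-105 array 3 there were 14, and without NX-alfacalcidol array 1 there were 4. NX-vehicle arrays 2 and 3 are those with gut transcripts. The mean level of the gut epithelium list was -2.35, -0.01 and 2.57 on the NX-vehicle arrays and -2.23 to -1.35 on the NX-alfacalcidol arrays. Its part in the falls against NX-vehicle was not tested.

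The authors' deposited table for alfacalcidol lists 46 genes, 35 higher and 11 lower against sham. It is not a list of all genes that differed between NX-alfacalcidol and sham, and Per2, Ciart and Bmal1 are not in it. In the limma fit 437 features were at least 2-fold different at an unadjusted p under 0.01. Each fold change in the authors' deposited table has the sign found here, and the largest gap was 5.1e-06 on the log2 scale. Both values come from the same arrays, so the match is a check of the arithmetic alone. Of these 46 genes 27 were called here, 21 higher and 6 lower. In 45 of the 46 rows the authors' deposited table also gives an unadjusted p under 0.01 for NX-vehicle against sham. That share may follow from how the authors selected the rows, and it is not read as a result about alfacalcidol. A further 7 genes, which the authors' deposited table keeps apart, have unadjusted p-values under 0.01 there for NX-vehicle against sham and of 0.0137 to 0.259 for NX-alfacalcidol against sham. Of those, 0 were called here.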

How the data were processed

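Aortic RNA of pooled rats was measured on 15 one-colour Agilent arrays. Per the labels' protocols, Cy3-labelled cRNA was made with a low-input kit, and per the submitters' processing notes Partek 6.0 was used. The authors deposited log2 values of 15739 features, their background correction, scaling and selection being not given in the sources used here. In addition, the authors' deposited sheets give an unadjusted p-value of an ANOVA and a signed fold change, treated here as a score. All value columns were matched to samples by label, with 0 left unmapped.

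Names were matched to RefSeq: 9187 features by symbol, 1555 by synonym, 23 to several genes and 4974 not, leaving 10723 usable symbols. Group means of all 15 arrays were fitted with limma 3.58.1 in R 4.3.3 (lmFit, eBayes, two-sided, Benjamini-Hochberg over all features), with 10 residual degrees of freedom. The script was tested on simulated data. The spread behind each p-value is that between pools of 2 rats, and their number limits the precision.

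Named genes are the 12 largest rises and 12 largest falls (called, no overlap, above every array's minimum), up to 4 called members of each list or else the 2 with the smallest p, and a fixed set of vessel, vitamin D and clock genes. Other genes are further list members, or chosen after their values were seen where so stated. Members, lists and rules were chosen with earlier results of these data known. Alternatives are given below.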

Additional observations from a re-analysis of the deposited data

How the results depend on the processing

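For NX-alfacalcidol against sham (275 called), the count was 169 with only these 2 groups fitted, 101 with no moderation, 470 with trend and robust moderation, 3723 with array weights and 104 with a replicate block. Of the 275 features, 95, 95, 267, 275 and 100 were among these, in that order. With only these 2 groups fitted, Clock, Bhlhe41, Fst, Inhbb, S100a8, Dnaja1, Chordc1, Txnrd1, Hif1a and Ier5 were no longer called. The same held for Sphkap, Fjx1, Rasd2, Nanos1, Prss30 and Mixl1. Leaving out 1 array at a time gave 31 to 861 calls. Without sham array 1, 171 of the 275 were among the 340 called. The count stayed within 1.5 times with array medians subtracted (347), quantile normalization (297, of which 45.8% higher), values raised to -2.71 (331) and dim features left out (312, of which 84.3% higher). The calls themselves changed more, with 230, 211, 274 and 177 of the 275 among these, in that order. Dim features could not be called in the last of these settings. For NX-alfacalcidol against NX-vehicle (7 called), these settings in the same order gave 58, 0, 14, 10142 and 3, then 152, 117, 17 and 19, with 0 to 35 when 1 array was left out. Without the arrays holding gut or muscle transcripts only 1 NX-vehicle array remains, so no count is given for that setting. For NX-vehicle against sham (0 called), the count was 1 with quantile normalization, 1649 with array weights and 0 to 2 when 1 array was left out. The arrays with gut or muscle transcripts were chosen after the data were seen. Limma's estimate of the array weights stopped before convergence and gave NX-vehicle array 3 a weight of 18.2. Replicate numbers did not pair the arrays: deviations of same-numbered sham and NX-alfacalcidol arrays correlated at -0.352, 0.0545 and 0.198, so the block result describes shared numbers alone. No called difference of a named gene changed sign. Differences near 0 that were not called did so when 1 array was left out, from -0.23 to 0.02 for Acta2, -0.21 to 0.07 for Col1a1 and -0.15 to 0.15 for Edn1.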

Other observations

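The genes in this paragraph and the next lie outside the naming rule and were chosen after their values were seen, so their p-values, from the same limma fit with Benjamini-Hochberg adjustment, describe genes already picked from the list of calls. Whether these calls held without single arrays or under other settings is not given, and many calls of the rule-named genes did not. Ezh2, the histone H3 lysine methyltransferase of the Polycomb repressive complex, had log2 levels of -1.11, -1.17 and -1.38 in sham and -0.10, -0.31 and -0.13 in NX-alfacalcidol. The groups do not overlap, the difference was 1.04 (adjusted p = 0.0057), and the NX-vehicle arrays lay between them at -0.43, -0.38 and -0.35. Herpud1, an endoplasmic reticulum stress protein, read 4.76, 4.53 and 4.85 in sham and 5.82, 5.76 and 5.76 in NX-alfacalcidol, a difference of 1.07 (adjusted p = 0.0057). Klf15, a zinc finger transcription factor, read 3.59, 3.70 and 4.13 in sham and at least 5.37 in each NX-alfacalcidol array, a difference of 1.67 (adjusted p = 0.0211). Its NX-vehicle arrays spanned 3.69 to 5.07 and overlapped with sham.

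Among falls chosen in the same way were receptors and ligands of signalling pathways. Fzd8, a Wnt receptor, read 2.39, 2.15 and 2.44 in sham and 0.96, 1.41 and 1.32 in NX-alfacalcidol, a difference of -1.10 (adjusted p = 0.00436). Ntrk2, the receptor for brain-derived neurotrophic factor, differed by -1.25 (adjusted p = 0.0209), and Artn, a ligand of the glial cell line-derived neurotrophic factor family, by -0.92 (adjusted p = 0.0147). For these 3 genes every NX-alfacalcidol array lay below every sham and every NX-vehicle array. The lymphocyte genes Cd247, the zeta chain of the T cell receptor complex, and Ltb, lymphotoxin beta, differed by -2.11 (adjusted p = 0.04) and -1.36 (adjusted p = 0.0409). Sham array 2 was the highest sham array for both genes, for Cd247 at 0.95 where the other sham arrays read -0.99 and -0.87.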
